A study of Homo sapiens with 18 samples.

Results

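The 39 genes described here encode antioxidant, glutathione and NFE2L2 pathway proteins of the cell. They were listed by name, with earlier results of these data known. All 39 are among the 58870 genes of the count table, and all 39 passed the low-count filter that left 17962 genes to test. They were measured by RNA-seq of polyadenylated RNA in HEK293 Flp-In, a line derived from human embryonic kidney that carries a single site for inserting transgenes. The 18 libraries form 6 conditions of 3 replicates. The siRNA was either a non-targeting control (siNT) or one directed at NRF1 (siNRF1), a transcription factor known for its control of mitochondrial respiratory genes. Each siRNA was given to cells for which the labels name no transgene, to a stable line with full-length NRF1 (NRF1-FL) and to a stable line with NRF1 that lacks exon 7 (NRF1-DE7, also written ΔE7). Both transgenes carry a FLAG tag, are switched on by doxycycline and have silent changes at the siRNA target site. The labels give siRNA and doxycycline as the treatment of all 18 libraries. Doxycycline (0.1 ng/mL) followed transfection by 24 h in the labels but by 6 h in the written methods, and cells were harvested 48 h after induction. Each transgene stands for 1 stable line, and no source says whether the 3 replicates were grown separately, so the spread behind each p-value is that between these libraries and may be technical.

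NFE2L2 is a transcription factor that the adaptor KEAP1 marks for destruction until oxidants or electrophiles modify KEAP1. With a small MAF partner (MAFG or MAFK) it then binds antioxidant response elements, sites for which BACH1 competes as a repressor. Its known targets make glutathione, reduce thioredoxin and peroxiredoxins, supply NADPH and store iron. NFE2L1, called Nrf1 in some texts, is a relative of NFE2L2 and a different gene from NRF1, the target of the siRNA.

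All siNRF1 comparisons rest on 1 siRNA, so its sequence is shown, with the guide strand derived from it and the guide's seed (bases 2 to 8) in capitals. Its target lies in the NRF1 coding sequence, at bases 499 to 517 of the 3518-base canonical transcript.
NRF1 siRNA, sense: gcuauuguccucuguaucu
NRF1 siRNA, guide: aGAUACAGaggacaauagc
The 7 bases that pair with the seed, CTGTATC, occur in the 3′ UTR of 5 of the 39 members (12.8%), against 1568 of 14240 tested genes with an annotated 3′ UTR (11.0%). The 5 sites are shown because some members that hold them are among those with the largest changes below. SOD2, which also holds one, changed little, and SOD1 and FTL, with large changes, hold none. Capitals mark the match, read from the canonical transcripts of GENCODE release 44, where SOD2 has another gene identifier than in the count table.
SLC7A11: tgttaaggCTGTATCatttaatg
GCLM: gtgaaaccCTGTATCtgctaaaa
SRXN1: gatggctgCTGTATCcccaagaa
SOD2: accaagacCTGTATCtccagtca
PGD: tggaacctCTGTATCatgcggct
A match is a description of the sequence and does not show that the siRNA acts there.

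RefSeq promoter windows (300 bases ending shortly after the start site, GRCh38.p14) were found for 29 of the 39 members. The core of the antioxidant response element, TGACNNNGC on either strand, was in 4 of the 29 (13.8%) and in 14.9% of 11719 windows of tested genes. The core of the NRF1 motif, GCGCANGCG on either strand, was in 3 of the 29 (10.3%) and in 14.0% of those windows. The windows of the members that hold one are shown with the motif in capitals, in the direction of the gene. The members with no window here were SOD1, SLC7A11, GSS, GSR, HMOX1, MAFK, PRDX1, PRDX6, FTH1 and TXN2.
GCLM, antioxidant response element core, chr1:93909441-93909479, minus strand: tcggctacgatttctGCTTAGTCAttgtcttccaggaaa
GSTP1, antioxidant response element core, chr11:67583731-67583769, plus strand: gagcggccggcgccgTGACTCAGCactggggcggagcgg
PGD, antioxidant response element core, chr1:10398848-10398886, plus strand: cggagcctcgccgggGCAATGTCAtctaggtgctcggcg
TXNRD1, antioxidant response element core, chr12:104215665-104215703, plus strand: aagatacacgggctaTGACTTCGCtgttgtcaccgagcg
MAFG, NRF1 core, chr17:81927811-81927849, minus strand: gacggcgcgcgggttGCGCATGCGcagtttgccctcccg
PRDX5, NRF1 core, chr11:64318075-64318113, plus strand: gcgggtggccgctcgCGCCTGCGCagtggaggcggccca
TXN, NRF1 core, chr9:110256646-110256684, minus strand: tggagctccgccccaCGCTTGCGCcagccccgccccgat
TXNRD1 held another antioxidant response element core 8 bases before its start, and the MAFG site also reads as the NRF1 core on the other strand, 1 base further on. Within these windows the members' shares were close to those of all windows for both motifs. Each gene had 1 window, and sites further upstream or at other start sites were not searched.

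Libraries held 31179285 to 44802675 estimated counts. Without a transgene the members together took 0.614 to 0.628% of them under siNT and 0.499 to 0.512% under siNRF1. Mitochondrial transcripts took 0.767 to 0.975% of counts in the siNT conditions and 1.19 to 1.66% in the siNRF1 conditions, and their part in the results was not tested. The 10 markers of HEK293 cells were detected in every condition, at a summed 1877 to 2478 CPM (counts relative to library size, scaled by TMM as are all levels below). In 4 libraries KRT5, a keratin of basal epithelium, exceeded 0.1 CPM. It reached 12.6 CPM in siNRF1 replicate 3, 2.02 in siNRF1 replicate 1, 1.41 in siNRF1+NRF1-DE7 replicate 2 and 0.494 in siNT+NRF1-DE7 replicate 2. The summed level of the 5 basal epithelial markers was 104 to 108 CPM in siNT and 87.8 to 102 CPM in siNRF1 libraries. The sum hides unlike markers. By the test used below, 3 of the 4 tested were higher and 1 lower under siNRF1 without a transgene. Of all tested genes 32.1% were higher and 32.4% lower. The markers' log2 fold-changes ran from -0.34 to 8.59. Without these 4 libraries, siNRF1 replicate 2 is the only siNRF1 library without a transgene, and each NRF1-DE7 condition lacks replicate 2. Calls can then be lost through fewer libraries alone. Member calls that changed are given with each comparison, or only log2 fold-changes where siNRF1 replicate 2 stands alone. Bulk RNA cannot tell fewer cells of a kind from less RNA per cell.

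NRF1 itself fell with its siRNA where no transgene was present. Its level was 31.1, 29.9 and 29.3 CPM in the siNT libraries and 7.19, 9.25 and 7.70 CPM in the siNRF1 libraries, a log2 fold-change of -1.92 (SE 0.0605, adjusted p = 5.85e-18). With the NRF1-FL transgene it was 52.4, 55.7 and 55.2 CPM under siNT and 49.3, 50.4 and 49.1 CPM under siNRF1. In the NRF1-DE7 line it was 58.7, 59 and 57.9 CPM and 37.3, 37.9 and 39.9 CPM. All 6 transgene libraries under siNRF1 thus held more NRF1 RNA than the siNT cells without a transgene, although gene counts do not separate transgene from endogenous RNA.

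Most of the antioxidant genes fell after siNRF1, in each of 3 comparisons that share no library but use the same siRNA. Because the members were chosen with earlier results of these data known, their counts beside those of all genes are a description. Without a transgene, 27 members were lower and 6 higher (BACH1, NQO1, HMOX2, GLRX, TXN2 and SOD2) by edgeR's quasi-likelihood test (Benjamini-Hochberg adjusted p under 0.05 over all tested genes), where 32.4% of all tested genes were lower and 32.1% higher. In the NRF1-FL line 28 were lower and 5 higher, against 31.3% and 32.2% of all genes. In the NRF1-DE7 line 29 were lower and 4 higher, against 33.6% and 34.5%. The median log2 fold-change of the members was -0.32, -0.31 and -0.39 in that order, while the median of all tested genes was 0.01, 0.02 and 0.02. With the study's further limit of an absolute log2 fold-change above 0.5, 14, 15 and 17 members were called, of which only BACH1 was higher in each. Of all tested genes, 28.9%, 27.1% and 32.8% were called at that limit. A total of 26 members were lower in all 3 comparisons (26.6% of all tested genes were) and 3 were higher in all 3, namely BACH1, TXN2 and HMOX2 (25.8% of all tested genes). Leaving out siNRF1 replicate 3 left 3 higher without a transgene. Without the 4 libraries that hold KRT5, 28 and 27 members were lower and 4 and 4 higher in the NRF1-FL and NRF1-DE7 lines. The calls lost were TXN2 with NRF1-FL, and NFE2L1 and GPX1 with NRF1-DE7. Without a transgene only siNRF1 replicate 2 is then left, too few to judge a call. There NQO1 moved from 0.34 to 0.05, GLRX from 0.19 to 0.15 and SOD2 from 0.07 to 0.06. MAFG moved from -0.13 to -0.11, GPX1 from -0.15 to -0.12, TXNRD2 from 0.05 to 0.13 and GLRX2 from -0.17 to -0.26, and TXN2 stayed at 0.11.

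**Figure D1:**
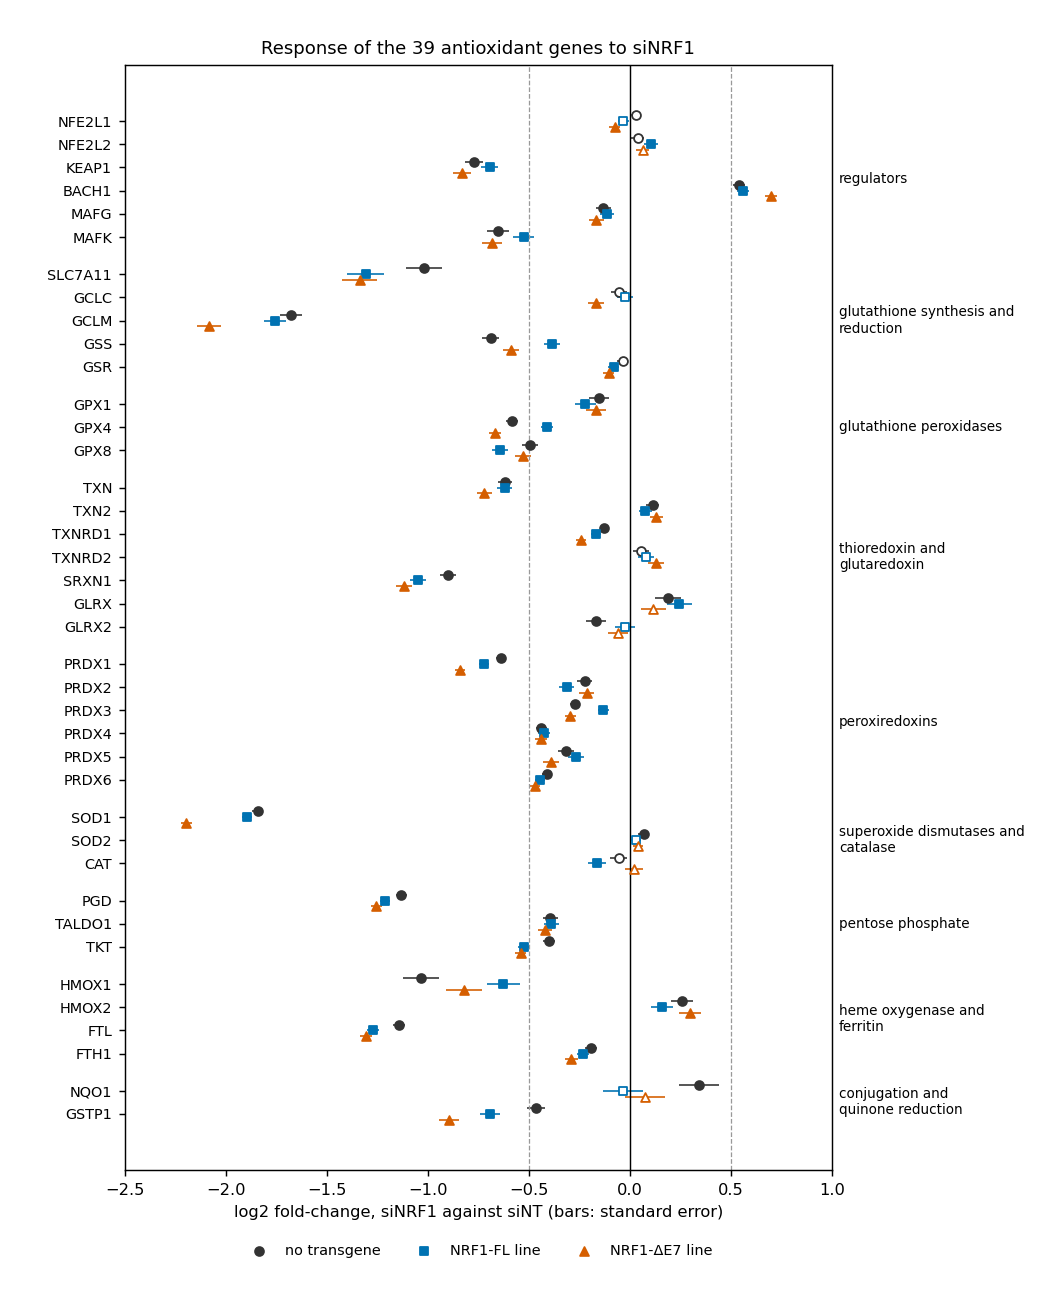
Log2 fold-change (x axis) of each of the 39 members (y axis, by role) between siNRF1 and siNT, in cells with no transgene (circles), the NRF1-FL line (squares) and the NRF1-ΔE7 line (triangles). Bars are standard errors, filled symbols have an adjusted p under 0.05 and dashed lines mark the limit of 0.5. Most symbols lie left of 0, SOD1 and GCLM farthest, and BACH1 lies past 0.5 on the right in all 3.

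Among the regulators, NFE2L2 and NFE2L1 RNA moved little while KEAP1 and MAFK fell and BACH1 rose. NFE2L2 was at 63.6, 65 and 62.7 CPM in siNT and 65.6, 65.3 and 65.5 CPM in siNRF1 libraries without a transgene, and its change of 0.04 (log2) did not pass the test. With NRF1-FL it rose from 62.7, 65.9 and 60.8 to 69.3, 67.7 and 66.5 CPM, a log2 fold-change of 0.10 (SE 0.0323, adjusted p = 0.00729). The NRF1-DE7 line had 62.3, 59.5 and 59.6 CPM under siNT and 64.1, 62.8 and 62.4 CPM under siNRF1, which did not pass. NFE2L2 shares exon bases with other genes on both strands, and no source used here gives the strand setting of the counting. NFE2L1 was at 260.3, 254 and 253 CPM in siNT and 262, 266 and 255 CPM in siNRF1 libraries. Its log2 fold-change was 0.03 without a transgene and -0.03 with NRF1-FL, neither past the test, and -0.08 (adjusted p = 0.0152) with NRF1-DE7, a direction that turned to 0.02 with upper-quartile scaling.

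KEAP1, the adaptor that holds NFE2L2 down, had 89.3, 87.2 and 85.4 CPM in siNT and 51.6, 51 and 50.9 CPM in siNRF1 libraries. The NRF1-FL line went from 88.3, 90.3 and 94.2 to 59.9, 55 and 53.9 CPM and the NRF1-DE7 line from 80.2, 75 and 76.2 to 46.2, 41.1 and 42.5 CPM. The groups did not overlap in any of the 3, and the log2 fold-change was -0.77 (SE 0.0428, adjusted p = 2.07e-13) without a transgene, -0.69 with NRF1-FL and -0.83 with NRF1-DE7. BACH1, the repressor at the same elements, went the other way. It stood at 96, 99.8 and 98.1 CPM in siNT and 143, 140.1 and 144 CPM in siNRF1 libraries, at 123, 123 and 114 and 174, 173 and 184 CPM in the NRF1-FL line, and at 127, 128 and 128 and 211, 208 and 203 CPM in the NRF1-DE7 line. BACH1 had log2 fold-changes of 0.54 (SE 0.0317, adjusted p = 5.67e-13), 0.56 and 0.70. MAFK had 33.5, 34.8 and 34.7 CPM in siNT and 22.8, 21.4 and 21.2 CPM in siNRF1 libraries, 31.4, 31.5 and 32 and 22.2, 22.1 and 21.6 CPM in the NRF1-FL line, and 39.3, 35.4 and 34 and 24.1, 22.2 and 21.3 CPM in the NRF1-DE7 line. The log2 fold-changes of MAFK were -0.65, -0.53 and -0.68, with no overlap of groups, whereas the other small MAF protein, MAFG, changed by -0.13, -0.11 and -0.17, each past the test.

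**Figure D2:**
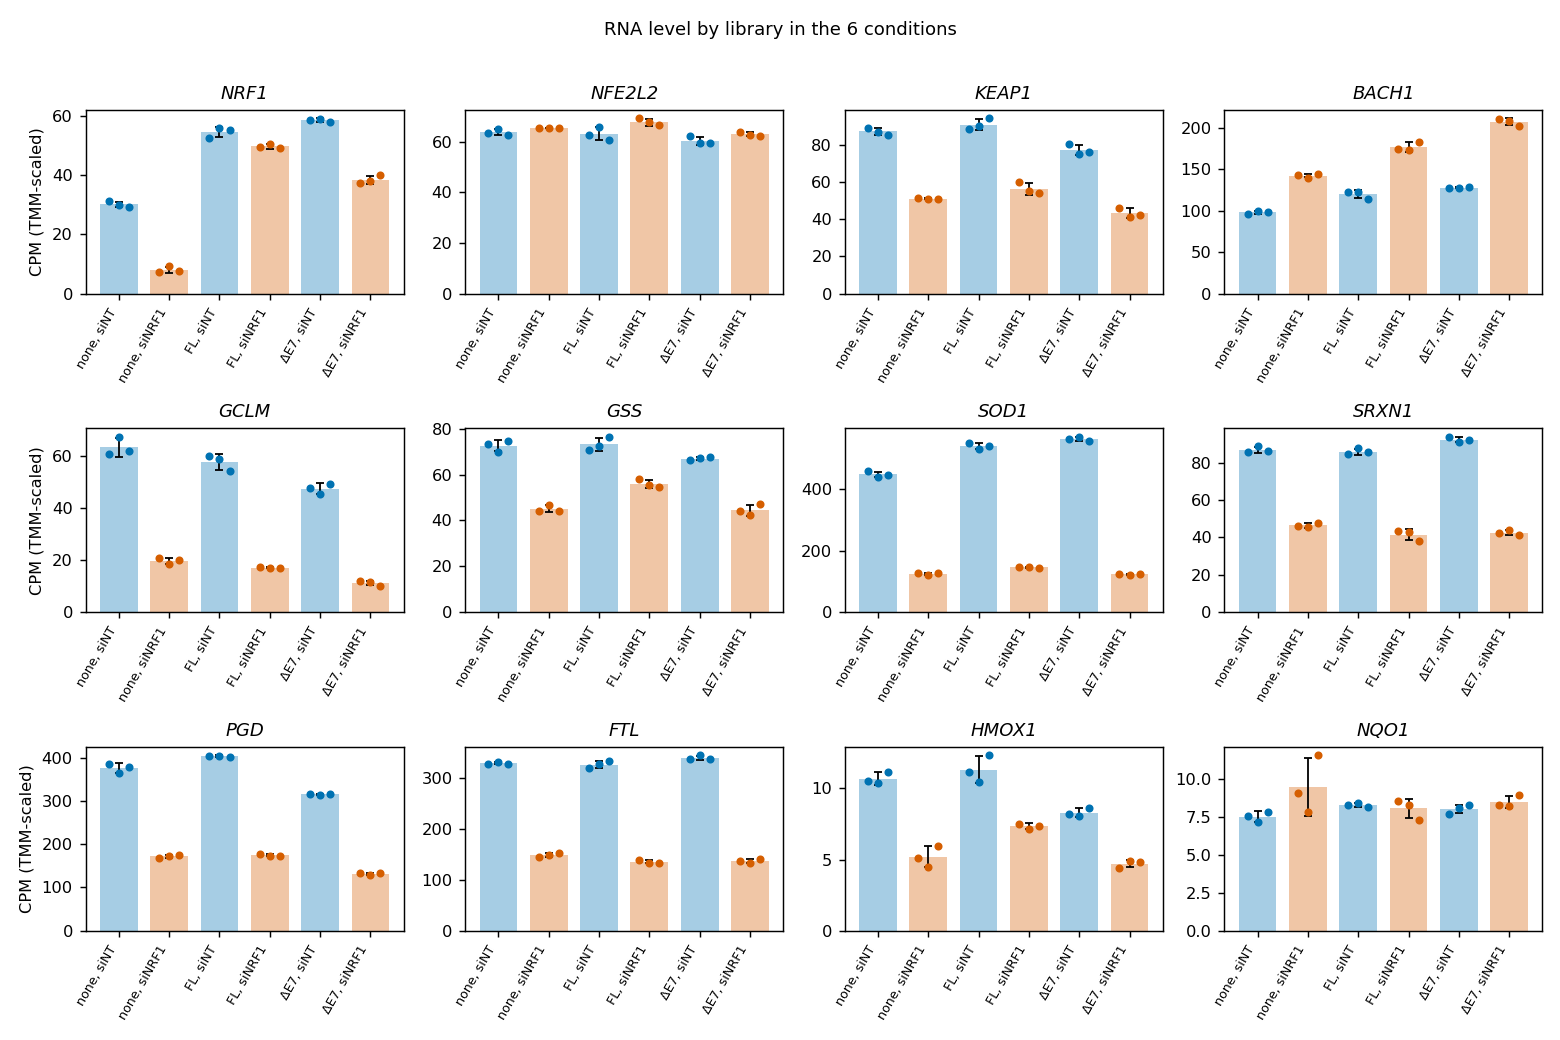
RNA level in CPM (y axis, from 0) of NRF1 and 11 members in the 6 conditions (x axis). Points are the 3 libraries, bars their mean and error bars the SD, with siNT in blue and siNRF1 in orange. NRF1 drops most after siNRF1 without a transgene, less in the NRF1-DE7 line and least in the NRF1-FL line, whereas KEAP1, GCLM, GSS, SOD1, SRXN1, PGD, FTL and HMOX1 are lower under siNRF1 with and without a transgene.

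Glutathione is made from cysteine, glutamate and glycine in consecutive steps, and the genes for these steps responded unequally. SLC7A11, the cystine importer, was at 22, 25.3 and 24.2 CPM in siNT and 10.9, 12.2 and 12.1 CPM in siNRF1 libraries. It was at 24.1, 20.8 and 23.7 and 7.72, 9.63 and 10.4 CPM in the NRF1-FL line and at 29, 28.8 and 29.4 and 11, 13.3 and 10.4 CPM in the NRF1-DE7 line. The groups were apart in all 3, with log2 fold-changes of -1.02 (SE 0.0894, adjusted p = 6.80e-10), -1.31 and -1.34. GCLM, the modifier subunit of the rate-limiting glutamate-cysteine ligase, had 60.8, 67.5 and 62.1 CPM in siNT and 20.7, 18.5 and 20.1 CPM in siNRF1 libraries. The NRF1-FL line had 60.3, 58.8 and 54.5 and 17.3, 16.9 and 17.2 CPM, and the NRF1-DE7 line 48, 45.3 and 49.5 and 11.9, 11.6 and 10.2 CPM. Its log2 fold-changes of -1.68 (SE 0.0554, adjusted p = 1.32e-17), -1.76 and -2.08 were exceeded in size only by those of SOD1 among the members. GCLC, the catalytic subunit of that ligase, was at 67.7, 67.3 and 69 CPM in siNT and 66.3, 63.4 and 66.6 CPM in siNRF1 libraries, and passed the test only in the NRF1-DE7 line, at -0.17.

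GSS, glutathione synthetase, fell without a transgene from 73.4, 69.8 and 74.5 to 44.3, 46.8 and 44.2 CPM. With NRF1-FL it fell from 70.6, 72.5 and 76.4 to 58, 55.4 and 54.7 CPM, and with NRF1-DE7 from 66.2, 67.1 and 67.6 to 44.1, 42.4 and 47 CPM. The log2 fold-changes were -0.69 (SE 0.0408, adjusted p = 6.47e-13), -0.39 and -0.59, so the decrease in the NRF1-FL line was the smallest of the 3. GSR, which returns oxidized glutathione to its reduced form, changed by -0.03 (not past the test), -0.08 (0.00448 with upper-quartile scaling) and -0.10.

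All 3 members of the glutathione peroxidase family, enzymes that reduce peroxides, were lower in all 3 comparisons. GPX4, which acts on lipid peroxides, was at 285, 274 and 279.8 CPM in siNT and 184, 188 and 187 CPM in siNRF1 libraries. It was at 279, 277 and 283 and 219, 209 and 203 CPM in the NRF1-FL line and at 331, 322 and 312 and 201, 197 and 208 CPM in the NRF1-DE7 line. Its log2 fold-changes were -0.59 (SE 0.03, adjusted p = 4.80e-14), -0.41 and -0.67. GPX8, an enzyme of the endoplasmic reticulum, had 47.7, 50.4 and 48.9 CPM in siNT and 36.3, 33.4 and 34.4 CPM in siNRF1 libraries, 46.6, 48.7 and 46.1 and 30.3, 31 and 29.1 CPM in the NRF1-FL line, and 47.4, 48.1 and 49.5 and 32.3, 35 and 33.3 CPM in the NRF1-DE7 line. Its log2 fold-changes were -0.50, -0.64 and -0.53, with groups apart each time. GPX1 changed less, by -0.15, -0.22 and -0.17, and 39.9% of its exon bases lie in another annotated gene on the same strand.

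In the thioredoxin and glutaredoxin group TXN, SRXN1 and TXNRD1 fell and TXN2 rose in all 3 comparisons, and the others passed in some. TXN, cytosolic thioredoxin, was at 136, 136 and 139 CPM in siNT and 84.2, 89.4 and 94.3 CPM in siNRF1 libraries, at 122, 122 and 126 and 81.7, 78.8 and 80.1 CPM in the NRF1-FL line, and at 129, 132 and 134 and 76.5, 81.3 and 82 CPM in the NRF1-DE7 line. TXN had log2 fold-changes of -0.62, -0.62 and -0.72. SRXN1, sulfiredoxin, which repairs over-oxidized peroxiredoxins, had 85.9, 88.9 and 86.2 CPM in siNT and 46, 45.5 and 48 CPM in siNRF1 libraries. Its level was 84.4, 87.7 and 85.5 and 43.6, 42.9 and 38 CPM in the NRF1-FL line and 93.9, 91.2 and 92.1 and 42.6, 44.1 and 41.2 CPM in the NRF1-DE7 line, with log2 fold-changes of -0.90 (SE 0.0401, adjusted p = 3.43e-15), -1.05 and -1.12. The groups were apart for both genes, though 90.7% of the SRXN1 exon bases lie in another annotated gene on the same strand, so its counts are uncertain. TXNRD1, cytosolic thioredoxin reductase, changed by -0.13, -0.17 and -0.24. TXN2, mitochondrial thioredoxin, rose by 0.11, 0.08 and 0.13, and TXNRD2, mitochondrial thioredoxin reductase, had values of 0.05, 0.08 and 0.13, of which only the last passed. The glutaredoxin GLRX had 0.19, 0.24 and 0.12 (the first 2 past the test), and GLRX2 had -0.17, -0.02 and -0.06 (only the first).

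The 6 peroxiredoxins, thiol enzymes that remove hydrogen peroxide, were lower in all 3 comparisons. PRDX1 was at 577, 576 and 583 CPM in siNT and 372, 365 and 379 CPM in siNRF1 libraries, at 583, 602 and 596 and 368, 358 and 354 CPM in the NRF1-FL line, and at 629, 629 and 618 and 339, 352 and 355 CPM in the NRF1-DE7 line. Its log2 fold-changes of -0.64 (SE 0.0245, adjusted p = 2.16e-16), -0.72 and -0.84 were past those of the other 5 peroxiredoxins. Those ranged from -0.44 for PRDX4 to -0.22 for PRDX2 without a transgene, with PRDX3, a mitochondrial enzyme, at -0.27, -0.13 and -0.30. Of the PRDX1 exon bases, 29.8% lie opposite another gene.

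SOD1, the cytosolic superoxide dismutase, had the largest decrease of all members, and SOD2, its mitochondrial counterpart, changed little. SOD1 was at 459, 441 and 448 CPM in siNT and 127, 121 and 128 CPM in siNRF1 libraries. The NRF1-FL line had 553, 532 and 542 and 147, 146 and 144 CPM, the NRF1-DE7 line 564, 571 and 559 and 124, 122 and 124 CPM. Every siNRF1 library was below every siNT library, with log2 fold-changes of -1.84 (SE 0.0267, adjusted p = 9.08e-24), -1.89 and -2.20. The count table has 2 SOD2 rows, and the one not used held 0.388% of the counts of the one used. SOD2 had 116, 113 and 114 CPM in siNT and 120.3, 119 and 119.8 CPM in siNRF1 libraries, a log2 fold-change of 0.07 (past the test), and 0.03 and 0.04 in the other lines (not past it). CAT, catalase, passed only in the NRF1-FL line, at -0.16.

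The enzymes of the pentose phosphate pathway, a source of NADPH, were lower in all 3 comparisons. PGD, which makes NADPH in the oxidative branch, was at 386, 365 and 379 CPM in siNT and 169, 172 and 175 CPM in siNRF1 libraries. It was at 404, 405 and 402 and 177, 173 and 173 CPM in the NRF1-FL line and at 316, 314 and 317 and 134, 129 and 133 CPM in the NRF1-DE7 line. The log2 fold-changes were -1.13 (SE 0.0252, adjusted p = 1.16e-20), -1.21 and -1.25. TALDO1 and TKT, of the non-oxidative branch, fell less, at -0.39, -0.39 and -0.42 and at -0.40, -0.53 and -0.54.

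Both ferritin chains, which store iron, fell, the light chain more than the heavy chain. FTL was at 328, 332 and 328 CPM in siNT and 145, 149 and 153 CPM in siNRF1 libraries, at 319, 327 and 333 and 139, 133 and 133 CPM in the NRF1-FL line, and at 337, 344 and 337 and 137, 133 and 141 CPM in the NRF1-DE7 line. Its log2 fold-changes were -1.14 (SE 0.0283, adjusted p = 7.39e-20), -1.27 and -1.31, and those of FTH1 were -0.19, -0.23 and -0.29. Processed pseudogenes of FTL and FTH1 held 0.138% and 0.461% of the counts of their parent gene, and 63.2% of the FTH1 exon bases lie opposite another gene. HMOX1, the inducible heme oxygenase, was low throughout, at 10.5, 10.4 and 11.2 CPM in siNT and 5.10, 4.50 and 5.98 CPM in siNRF1 libraries. It was at 11.2, 10.5 and 12.3 and 7.53, 7.13 and 7.35 CPM in the NRF1-FL line and at 8.22, 8.05 and 8.65 and 4.41, 4.87 and 4.84 CPM in the NRF1-DE7 line. Its log2 fold-changes were -1.03 (SE 0.0872, adjusted p = 3.53e-10), -0.63 and -0.82, while HMOX2, the constitutive form, rose by 0.26, 0.16 and 0.30.

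GSTP1, a glutathione transferase, fell and NQO1, a quinone reductase often used as a readout of NFE2L2, did not fall. GSTP1 was at 45.8, 45.8 and 44.6 CPM in siNT and 31, 32.5 and 35.2 CPM in siNRF1 libraries, at 34.2, 34.5 and 34.8 and 22.1, 22.4 and 19.5 CPM in the NRF1-FL line, and at 39.1, 38.1 and 39.3 and 21.2, 20.8 and 20.6 CPM in the NRF1-DE7 line. Its log2 fold-changes were -0.46 (SE 0.0465, adjusted p = 6.65e-09), -0.69 and -0.90. NQO1 was at 7.58, 7.16 and 7.86 CPM in siNT and 9.12, 7.82 and 11.6 CPM in siNRF1 libraries, groups that overlap. Its log2 fold-change of 0.34 (SE 0.1, adjusted p = 0.0048) was 0.17 (SE 0.0852, adjusted p = 0.0880) without siNRF1 replicate 3. It was 0.05 without the 4 libraries that hold KRT5, where siNRF1 replicate 2 stands alone. The siNRF1 replicates 1, 2 and 3 held 2.02, 0 and 12.6 CPM of KRT5, 2.49, 0.119 and 11.6 CPM of AKR1C2 and 4.75, 0.948 and 10.9 CPM of ALDH3A1, so NQO1 was highest where these were highest, and their part in the result was not tested. In the NRF1-FL and NRF1-DE7 lines NQO1 had log2 fold-changes of -0.03 and 0.08, neither past the test.

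Per kilobase of canonical transcript, the members covered a wide range of levels in siNT cells. PRDX1 was highest at 612 ± 3.65 CPM per kb (SD, n = 3), followed by SOD1 at 502 ± 9.89, FTH1 at 442 ± 13.2 and FTL at 378 ± 2.64. SLC7A11 was lowest at 2.47 ± 0.175 CPM per kb, with NQO1 at 2.99 ± 0.140 and HMOX1 at 6.88 ± 0.285. The rank of SLC7A11 depends on its canonical length of 9645 bases, and in CPM it was above NQO1 and HMOX1. NFE2L2 itself stood at 26.1 ± 0.468 CPM per kb and KEAP1 at 34.0 ± 0.755. Decreases beyond 1 on the log2 scale were thus seen both in members high per kb (SOD1, FTL) and in members low per kb (SLC7A11, HMOX1).

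Of the 5 members with a seed match in the 3′ UTR, 4 (SLC7A11, GCLM, SRXN1 and PGD) fell in all 3 comparisons and SOD2 did not. Their median log2 fold-change was -1.02, -1.21 and -1.25, and that of the 34 members without a match -0.25, -0.25 and -0.29. Over all tested genes with an annotated 3′ UTR, the median was -0.30, -0.32 and -0.37 for the 1568 with a match and 0.03, 0.05 and 0.05 for the 12672 without one. SOD1, FTL, KEAP1 and HMOX1 hold no match. The 3′ UTRs of the 5 members with a match had 762 (PGD) to 13424 bases (SOD2). Those of the 34 without had 62 (PRDX4) to 4335 (MAFG). These medians take no account of 3′ UTR length, which bears on whether a match occurs. The part of the seed in any member's change was not tested.

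The members' response to siNRF1 in the NRF1-FL line was mostly close to that without a transgene, as was that of all tested genes, although NRF1 RNA was not. The median absolute difference of the 2 responses was 0.077 for the members and 0.0997 for all tested genes. The difference of the 2 responses passed the test for 3 members, all higher in the NRF1-FL line (4.18% of all tested genes were higher and 1.15% lower). GSS differed by 0.30 (SE 0.057, adjusted p = 0.00114), GPX4 by 0.18 (SE 0.0423, adjusted p = 0.0121) and PRDX3 by 0.14 (SE 0.0373, adjusted p = 0.0252), each a smaller decrease with NRF1-FL. HMOX1 had a difference of 0.41 (SE 0.121), which did not pass. For SOD1 the difference was -0.05 (SE 0.0369), for GCLM -0.08 (SE 0.0803), for FTL -0.13 (SE 0.0399) and for PGD -0.08 (SE 0.0353), none past the test. The largest negative differences were -0.38 for NQO1, -0.29 for SLC7A11 and -0.23 for GSTP1, which did not pass either. The NQO1 response without a transgene depended on siNRF1 replicate 3, as given above. For NRF1 itself it was 1.78 (SE 0.0757). With the 4 libraries that hold KRT5 left out, only siNRF1 replicate 2 remained without a transgene under siNRF1, too few to judge a call. The differences were then 0.24 for GSS, 0.15 for GPX4, 0.14 for PRDX3 and 0.61 for HMOX1.

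**Figure D3:**
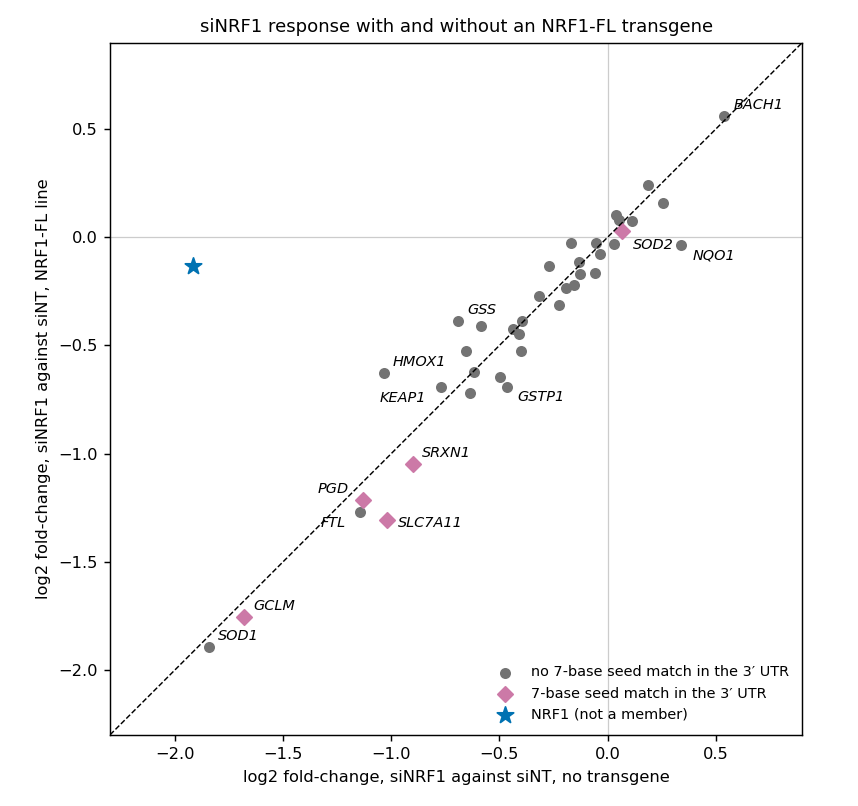
Log2 fold-change of each member between siNRF1 and siNT without a transgene (x axis) and in the NRF1-FL line (y axis), with members that hold a seed match as diamonds, the others as circles and NRF1 as a star. Most members lie near the dashed line of equal response, while NRF1 lies far above it (-1.92 against -0.13).

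With endogenous NRF1 depleted, the NRF1-DE7 and NRF1-FL lines differed in 17 members, 9 lower and 8 higher in the NRF1-DE7 line, where 17.8% of all tested genes were lower and 13.9% higher. The median absolute log2 fold-change was 0.068 for the members and 0.135 for all tested genes. Only HMOX1 and GCLM also passed the limit of 0.5 (6.21% of all tested genes did). HMOX1 was at 7.53, 7.13 and 7.35 CPM with NRF1-FL and 4.41, 4.87 and 4.84 CPM with NRF1-DE7, a log2 fold-change of -0.64 (SE 0.0897, adjusted p = 6.77e-06). GCLM was at 17.3, 16.9 and 17.2 and 11.9, 11.6 and 10.2 CPM, at -0.60 (SE 0.0671, adjusted p = 2.42e-07). Neither gene's groups overlapped. The other members that were lower with NRF1-DE7 were PGD (-0.40), KEAP1 (-0.38), GSS (-0.33), GCLC (-0.27), SOD1 (-0.24), NFE2L2 (-0.10) and PRDX3 (-0.10). All 3 genes for making glutathione from its amino acids (GCLC, GCLM and GSS) were thus lower, whereas the cystine importer SLC7A11 was higher, at 0.32 (SE 0.098, adjusted p = 0.0162). BACH1 (0.23), HMOX2 (0.20), CAT (0.16), GPX8 (0.15), FTH1 (0.14), GPX1 (0.13) and TXN2 (0.11) were higher too. NRF1 RNA was also lower in the NRF1-DE7 line (-0.37), and each isoform stands for 1 stable line. The isoform, the amount of NRF1 RNA and the line therefore cannot be told apart here. SLC7A11 (0.21, adjusted p = 0.134), NFE2L2 and PRDX3 no longer passed without the 4 libraries that hold KRT5.

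Under siNT, with endogenous NRF1 present, 7 members were lower and 8 higher in the NRF1-DE7 line than in the NRF1-FL line, against 8.42% and 7.13% of all tested genes, and none passed 0.5. The changes were small, with a median absolute log2 fold-change of 0.076 for the members and 0.097 for all tested genes. HMOX1 (-0.45), PGD (-0.36), GCLM (-0.28) and KEAP1 (-0.24) had the largest decreases, and SLC7A11 (0.35) and GPX4 (0.20) the largest increases. PGD was at 404, 405 and 402 CPM with NRF1-FL and 316, 314 and 317 CPM with NRF1-DE7, groups far apart without any siNRF1. By the levels given above, NRF1 RNA was not lower in the NRF1-DE7 line under siNT. The isoform and the line cannot be told apart there either. Without the 4 libraries that hold KRT5, 4 members were lower instead of 7 and 6 higher instead of 8, with GCLC, GSS, PRDX2, GLRX and PRDX1 no longer past the test.

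**Figure D4:**
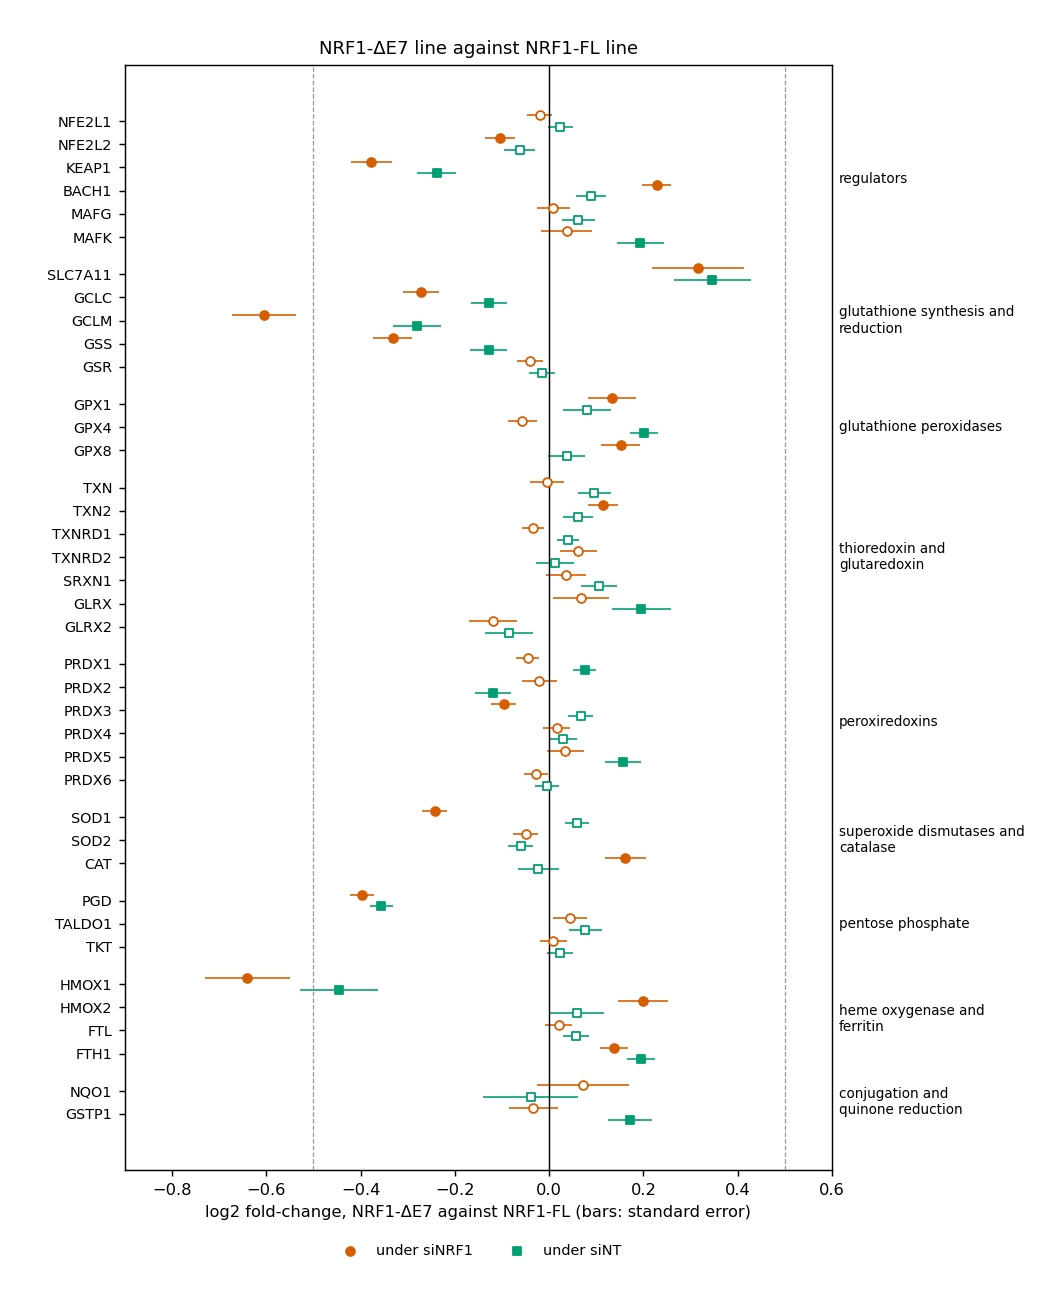
Log2 fold-change (x axis) of each member (y axis, by role) between the NRF1-ΔE7 and NRF1-FL lines under siNRF1 (circles) and siNT (squares). Bars are standard errors and filled symbols have an adjusted p under 0.05. HMOX1 and GCLM lie past -0.5 under siNRF1, and PGD lies at -0.40 and -0.36.

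The response to siNRF1 differed between the NRF1-DE7 and NRF1-FL lines for 6 members, all with a larger decrease in the NRF1-DE7 line (5.55% of all tested genes had a lower and 1.64% a higher response). The median absolute difference was 0.099 for the members and 0.111 for all tested genes. SOD1 differed by -0.30 (SE 0.0367, adjusted p = 3.97e-06), GCLM by -0.33 (SE 0.0842, adjusted p = 0.0176) and GPX4 by -0.26 (SE 0.042, adjusted p = 1.80e-04). GSS, PRDX3 and PRDX1 differed by -0.20, -0.16 and -0.12. HMOX1 and PGD, lower with NRF1-DE7 under either siRNA, had differences of -0.19 (SE 0.122) and -0.04 (SE 0.0355), which did not pass. NRF1 RNA itself differed in the same direction, by -0.47 (SE 0.063, adjusted p = 1.31e-05), and its part in these differences was not tested. GSS and PRDX1 no longer passed without the 4 libraries that hold KRT5.

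Under siNT the lines also differed from cells without a transgene. With NRF1-FL, 2 members were lower and 5 higher, against 2.81% and 5.33% of all tested genes. GSTP1 was lower at -0.40 (SE 0.0465, adjusted p = 6.35e-06), and BACH1 and SOD1 were higher at 0.29 and 0.27. In the NRF1-DE7 line 7 were lower and 9 higher, against 7.69% and 8.62%. GCLM (-0.41), HMOX1 (-0.36), PGD (-0.26) and GSTP1 (-0.23) were lower, and BACH1 (0.38), SOD1 (0.33) and SLC7A11 (0.29) higher. SOD2 with NRF1-FL and GSS with NRF1-DE7 no longer passed without the 4 libraries that hold KRT5. The median absolute log2 fold-change was 0.038 for the members and 0.082 for all tested genes with NRF1-FL, and 0.087 and 0.103 with NRF1-DE7. Both comparisons share the siNT libraries without a transgene.

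Other genes of the same pathways, in 6 lists of 122 genes, responded in both directions to siNRF1 without a transgene, where 32.4% of all tested genes were lower and 32.1% higher. Of 20 NFE2L2 partners and controllers tested, 10 were lower and 6 higher. The log2 fold-change was -1.96 for NFE2L3, a relative of NFE2L2, -0.90 for DDI2, a protease that activates NFE2L1, and -0.70 for GSK3B, a kinase that limits NFE2L2. Of 24 further NFE2L2 targets, 9 were lower, among them ME1, malic enzyme, at -1.22, and PIR at -0.73, and 7 were higher. At the limit of 0.5, 4 were higher without a transgene, against 0 in the NRF1-FL and NRF1-DE7 lines. Without the 4 libraries that hold KRT5, where siNRF1 replicate 2 stands alone, 22 of these targets were tested. ALDH3A1, at 2.46 with overlapping groups, was then at -0.10. AKR1C1, also among those past 0.5, moved from 5.56 to 0.86. Of 23 other glutathione enzymes, 15 were lower (GSTK1 at -1.36, GSTM3 at -1.18) and 4 higher, among them CHAC1, which breaks glutathione down, at 1.20. Of 18 thiol repair and stress genes, 10 were lower (TXNDC5 at -1.15) and 5 higher (the sestrins SESN1 and SESN2 at 0.65 and 0.52, where SESN3 was at -0.96). Of 17 selenoprotein genes 7 were lower and 4 higher. Counts of these lists without those 4 libraries are not given, as only siNRF1 replicate 2 would be left. Of 12 iron handling genes 9 were lower and none higher, with TFRC, the transferrin receptor, at -1.15 and SLC39A14 at -0.83.

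Between NRF1-DE7 and NRF1-FL under siNRF1, 10 of the 20 partners and controllers were lower and 2 higher, where 17.8% of all tested genes were lower and 13.9% higher, with DDI2 at -0.51. Of the 24 further targets 5 were lower and 8 higher (OSGIN1 at 0.66), and of the 23 glutathione enzymes 4 were lower and 5 higher. GSTK1 and GSTM3 were lower at -0.79 and -0.63 and CHAC1 higher at 0.57, each in the direction of its siNRF1 response above. In the thiol repair list 3 were lower and 4 higher, with TXNRD3 at -0.52 and MSRA, a methionine sulfoxide reductase, at 0.66. The selenoprotein list had 2 lower and 2 higher, and the iron list 3 lower and 2 higher. Without the 4 libraries that hold KRT5, 4 of 22 further targets were lower and 5 higher, 2 of the thiol repair list were lower, and 1 of the iron list was higher.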

How the data were processed

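RNA of 18 libraries was prepared with a stranded mRNA kit. Trimming by the authors used Cutadapt 1.18 and mapping STAR 2.7.0f (hg38, GENCODE release 30), and DESeq2 1.46.0 is listed too, per the submitters' notes. The tool that counted reads, and its use of strand, were not given in these sources. The deposited values are estimated counts per gene (91.9% whole), which were rounded. The table has 36 library columns, of which 18 match no sample used here and were left out. Genes passing edgeR's filterByExpr (minimum count 10) were scaled by TMM and fitted with edgeR 4.0.16 (R 4.3.3) quasi-likelihood F tests, with 1 mean for each of 6 groups over all libraries (12 residual degrees of freedom), 9 comparisons and Benjamini-Hochberg adjustment over 17962 genes. The procedure was tested on simulated data. Precision depended on the library totals, 31179285 to 44802675, and on the spread between replicates. Every replicate pair differed beyond sampling noise.

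The members and lists were chosen with earlier results of these data known. Per-library values are given for the up to 16 members with the largest change among those past an adjusted p of 0.05 and an absolute log2 fold-change of 0.5 in any comparison, plus NFE2L2, KEAP1 and NFE2L1; GCLC, SOD2 and NQO1 were added after their values were seen. From each other list, up to 3 genes per direction past the same limits, with at least 1 CPM on average, could be named. AKR1C1 and AKR1C2 were named beyond this rule, because of the libraries that hold KRT5. Alternatives were RLE and upper-quartile scaling, other filters, DESeq2 1.42.0, a fit of only the groups compared, a replicate block and leaving out each library. Leaving out the libraries that hold KRT5 was chosen after seeing the data.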

Additional observations from a re-analysis of the deposited data

Results flagged for a closer look

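The size of the siNRF1 response differed between lines for several members, by the test of the difference itself. Between the NRF1-DE7 and NRF1-FL lines the log2 difference was -0.30 (SE 0.0367, adjusted p = 3.97e-06) for SOD1, -0.33 (SE 0.0842, adjusted p = 0.0176) for GCLM, -0.26 (SE 0.042, adjusted p = 1.80e-04) for GPX4, -0.20 (SE 0.0567, adjusted p = 0.0286) for GSS, -0.16 (SE 0.0372, adjusted p = 0.00649) for PRDX3 and -0.12 (SE 0.0345, adjusted p = 0.0334) for PRDX1. Between the NRF1-FL line and cells without a transgene it was 0.30 (SE 0.057, adjusted p = 0.00114) for GSS, 0.18 (SE 0.0423, adjusted p = 0.0121) for GPX4 and 0.14 (SE 0.0373, adjusted p = 0.0252) for PRDX3. For NRF1 RNA itself the differences were -0.47 (SE 0.063, adjusted p = 1.31e-05) and 1.78 (SE 0.0757, adjusted p = 1.23e-13). Without the 4 libraries that hold KRT5, GSS (-0.17, adjusted p = 0.164) and PRDX1 (-0.12, adjusted p = 0.102) no longer passed in the first. In the second, only siNRF1 replicate 2 is then left without a transgene under siNRF1, too few to judge a call. The differences there were 0.24 for GSS, 0.15 for GPX4 and 0.14 for PRDX3. Both differences use the NRF1-FL libraries.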

How the results depend on the processing

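Of 1620 values of the 18 members described in depth, over 6 comparisons and the alternatives, 1520 kept their direction and side of the threshold, 53 lost and 28 gained the call, and 19 changed sign. The other 21 members were not in this tally, and of those past the test GSR turned to 0.00448 with upper-quartile scaling in the NRF1-FL siRNA comparison. With upper-quartile scaling NFE2L1 was at 0.0515 and 0.0207 in the NRF1-FL and NRF1-DE7 siRNA comparisons and at 0.00504 between the lines under siNRF1. There TXN was at 0.00485 with RLE scaling, 0.0214 with upper-quartile scaling, 0.00666 with no filter, 0.00485 with DESeq2 and 0.000315 in the fit of only the groups compared. Leaving out 1 library gave -0.0173 to 0.0322 for TXN, -0.0168 to 0.078 for SRXN1, -0.0876 to 0.00876 for GSTP1, -0.00922 to 0.0841 for MAFK and -0.0414 to 0.000661 for NFE2L1 there, and -0.144 to 0.0506 for SLC7A11 in the difference between the lines' responses.

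Upper-quartile scaling moved the median of all genes in the 3 siRNA comparisons to 0.09, 0.11 and 0.12 and that of the members to -0.23, -0.23 and -0.29. Genes past the limit of 0.5 then split into 2276 lower and 3110 higher, 2028 and 2995, and 2510 and 3692; 8 instead of 4 members were higher in the NRF1-DE7 line. With the limit of 0.5 on the fold-change, 13, 14 and 16 members were lower and 1, 1 and 1 higher in the siRNA comparisons, 2 lower and 0 higher between the lines under siNRF1, and 0 in either direction in the other comparisons. With no filter 3 members were higher in the NRF1-FL siRNA comparison. For the difference between the lines' responses, 1 member was higher with RLE, upper-quartile scaling, no filter, the stricter filter and DESeq2. For the NRF1-FL line against no transgene, 3 responses were lower with RLE, 2 with no filter, 1 with the stricter filter and 3 with DESeq2. Without the libraries that hold KRT5 there were 4 members lower between the lines under siNT. The causes were not tested.

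Leaving out 1 library at a time gave 26 to 27 lower and 3 to 6 higher without a transgene, 27 to 28 and 2 to 5 in the NRF1-FL line, and 28 to 29 and 3 to 5 in the NRF1-DE7 line. Between the lines it gave 8 to 9 lower and 7 to 8 higher under siNRF1 and 4 to 6 and 5 to 7 under siNT. For the difference between the lines' responses the counts were 4 to 7 and 0 to 1, for the NRF1-FL response against no transgene 0 to 3 and 1 to 4, for the NRF1-FL line under siNT 2 to 2 and 3 to 5, and for the NRF1-DE7 line under siNT 6 to 7 and 7 to 9. Single libraries moved a count by over 1.5 times as follows. Without siNRF1 replicate 3, 3 members were higher without a transgene. In the NRF1-FL siRNA comparison 3 were higher without siNT+NRF1-FL replicate 2 or 3 and 2 without siNRF1+NRF1-FL replicate 1. Between the lines under siNT, 4 were lower without siNT+NRF1-DE7 replicate 1 or 2 or siNT+NRF1-FL replicate 3, and 5 higher without siNT+NRF1-DE7 replicate 1. The difference between the lines' responses gained 1 higher member without replicate 2 or 3 of siNRF1+NRF1-DE7, or replicate 3 of either NRF1-FL condition. For the NRF1-FL response against no transgene, leaving out siNRF1+NRF1-FL replicate 1 gave 3 lower and 1 higher, siNRF1 replicate 1 gave 2 lower, and siNT replicate 1, siNRF1 replicate 2 or siNRF1+NRF1-FL replicate 2 gave 1 lower. For the NRF1-FL line under siNT, 3 were higher without replicate 2 of either group. Same-numbered replicates did not all deviate together (correlations of -0.247 to 0.289 over the comparisons). In the NRF1-DE7 siRNA comparison they were 0.0364 to 0.25 (mean 0.135, against -0.0675 for other numbers), not every one over 0.1, so the numbers were not taken to pair the libraries. With a replicate block 1 member had a lower and 4 a higher response in the NRF1-FL line against no transgene, and 9 instead of 8 were higher between the lines under siNT; the other counts were equal.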
